A study of Mus musculus with 7 samples.

Results

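Complement and acute phase genes were examined in sorted Paneth cells (PCs), secretory cells that sit at the bottom of the crypts of the small intestine and release antimicrobial granules. The group held 9 mouse genes chosen by name: C3, Cfb, C4b, Cfi, Saa1, Saa2, Saa3, Hp and Pigr. All 9 symbols were found among the 55414 identifiers of the deposited count table. The control group (PBS, n = 3) came from C57BL/6J mice injected with phosphate-buffered saline, and the treated group (TNF, n = 4) from C57BL/6J mice injected with tumour necrosis factor. No mutant allele is named for either group, and in both groups the small intestine was taken at 15 h and the PCs were purified with a cell sorter. Per the series description, every library came from a mouse of its own. The dose, the age and sex of the mice, the sorting antibodies and any batch are unknown from the sources used here.

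Complement is a cascade of plasma and tissue proteins in which C3 is cleaved by convertases. The classical and lectin pathways build their convertase from C4 and C2, the alternative pathway builds its own from C3b and factor B, and factor I cuts C3b and C4b into inactive forms. Acute phase proteins, such as the serum amyloid A (SAA) proteins and haptoglobin, are plasma proteins that the liver makes in larger amounts during inflammation, and epithelia make some of them as well. The polymeric immunoglobulin receptor, encoded by Pigr, carries IgA and IgM through epithelial cells into the gut lumen.

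Library depth ran from 15511455 to 18388058 counts in the PBS group and from 16485259 to 19193721 counts in the TNF group. The PC label was checked against 10 PC markers, including Lyz1 and Mmp7, whose summed level was 168413 to 273482 CPM (counts scaled to 1000000 per TMM-scaled library) after PBS and 172890 to 314262 CPM after TNF. Of these 10, 4 were higher after TNF, 2 were lower and 4 were not called (edgeR, adjusted p under 0.05). Calls in each marker list here stand next to those over all 14329 genes, 29.5% higher and 30.1% lower. Differences from these shares were not tested. Markers of other cells were also present. Of 12 leukocyte markers, summed at 23.8 to 32.7 CPM after PBS and 27.3 to 32.8 CPM after TNF, 7 had 0 counts in all PBS libraries, among them the neutrophil genes Ly6g, S100a8 and S100a9, and the T cell gene Cd3e had 0 counts in all 7 libraries. Of 5 tested leukocyte markers, 2 were higher after TNF (Ly6g and S100a9) and 1 was lower (Ptprc). The 8 tuft cell markers all fell, from a summed 1558 to 2563 CPM to 309 to 787 CPM, and 6 of 8 stem cell markers, 5 of 8 goblet cell markers and 4 of 7 tested enterocyte markers were also lower after TNF, while 2 enterocyte markers were higher. Enteroendocrine markers went from a summed 45.8 to 117 CPM to 19.4 to 32.2 CPM, with 3 of 7 tested lower. Plasma cell markers went from a summed 39.4 to 46.0 CPM to 115 to 142 CPM, with 1 of 2 tested higher (Sdc1, which epithelia also express) and 1 lower (Derl3). Stromal and endothelial markers went from 4.22 to 4.45 CPM to 8.44 to 11.03 CPM, with 1 of 2 tested higher and 1 lower. Their part in the results below was not tested. In bulk libraries, fewer cells of a type and less RNA per cell cannot be told apart.

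Of the 9 genes, 8 passed the filter on low counts, and Saa2 did not. At a Benjamini-Hochberg adjusted p under 0.05 in edgeR's quasi-likelihood test over 14329 genes, 3 of the 8 were higher after TNF (C3, Saa3 and Pigr), next to 29.5% of all genes tested. Another 2 were lower (C4b and Cfi), next to 30.1% of all genes, and 3 were not called (Cfb, Saa1 and Hp). In either direction, 5 of 8 were called, next to 59.6% of all genes, a share so near the background that it says nothing particular about the group. The CPM ranges of the PBS and TNF libraries did not overlap for the same 5 genes, next to 60.7% of all genes. The median log2 fold change was 0.35 over the 8 genes and 0.0017 over all genes tested.

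**Figure D1:**
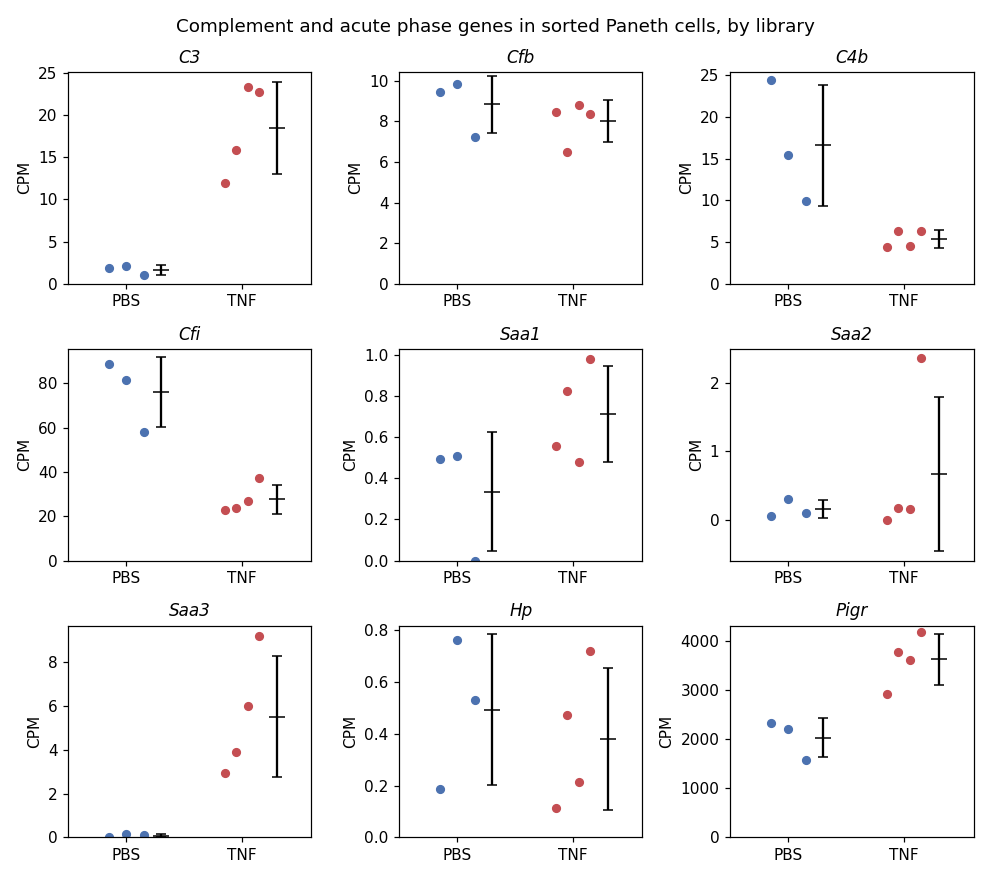
CPM of each of the 9 genes in the 3 PBS libraries (blue) and the 4 TNF libraries (red), with the mean and SD of each group in black; each panel has its own linear axis. The TNF points of C3, Saa3 and Pigr lie above all PBS points, those of C4b and Cfi lie below them, and the ranges of the other 4 genes overlap.

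Levels of different genes were compared per annotated exon length, as TPM (counts divided by this length and scaled to 1000000 per library). The length joins the exons of all annotated transcripts of a gene. For Saa1 (2632 bases) and Saa2 (2524 bases) it equals the whole gene span, and for Saa3 it is 3118 bases. The TPM and rank of a gene made mainly as a shorter transcript can therefore be too low. TPM values carry no TMM scaling, so the order of libraries can differ from that in CPM. After PBS, Pigr stood far above the others at 874 ± 78.6 TPM (SD, n = 3), followed by Cfi at 54.6 ± 4.01 TPM. C4b at 4.57 ± 0.861 TPM and Cfb at 4.54 ± 0.653 TPM came next, with ranges that overlapped. The rank of Cfb in both groups is uncertain, since 65.5% of its 75-base transcript windows also occurred in another annotated gene. Hp at 0.548 ± 0.346 TPM and C3 at 0.544 ± 0.127 TPM overlapped as well, and Saa1, Saa2 and Saa3 followed with means of 0.196, 0.113 and 0.0544 TPM and overlapping ranges.

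After TNF, Pigr at 1507 ± 114 TPM (SD, n = 4) and Cfi at 19.1 ± 2.43 TPM still held the first ranks. C3 came next at 5.92 ± 1.32 TPM, in a range that overlapped that of Cfb at 4.07 ± 1.18 TPM, which in turn overlapped that of Saa3 at 2.84 ± 0.923 TPM. C4b followed at 1.5 ± 0.193 TPM, below all of these without overlap. Saa1, Saa2 and Hp had the lowest means, at 0.447, 0.362 and 0.341 TPM, and their ranges overlapped.

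**Figure D2:**
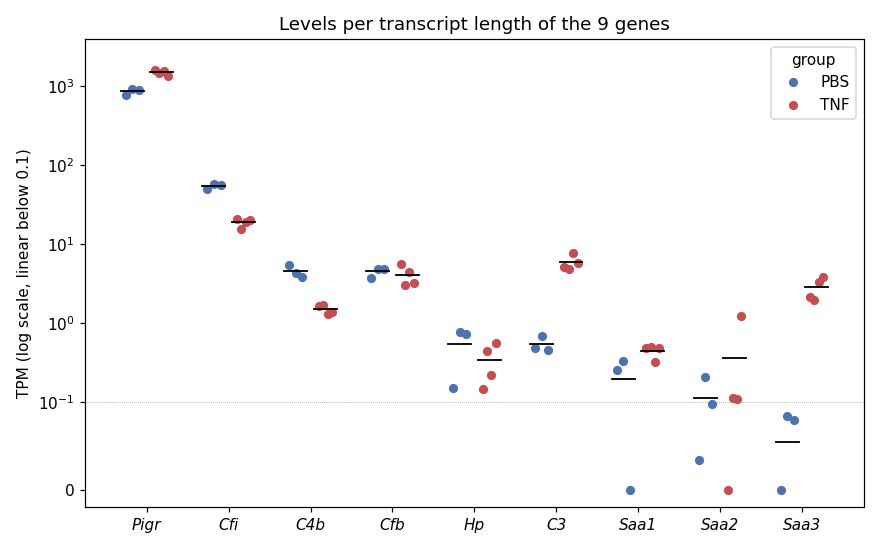
TPM of the 9 genes in each library, on a log axis that is linear below 0.1; blue points are PBS, red points are TNF and black lines are group means. Pigr and Cfi hold the 2 highest levels in both groups, while C3 and Saa3 move from the lower part of the order after PBS to the middle after TNF.

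C3 (ENSMUSG00000024164, GRCm39 chr17:57510964-57535155, minus strand) encodes complement component 3, the protein on which all pathways converge. Its level was 1.85, 2.09 and 1.01 CPM in the PBS libraries and 12.0, 15.9, 23.3 and 22.7 CPM in the TNF libraries. Every TNF library was thus above every PBS library, and the lowest TNF value was in replicate 1. The mean rose from 1.65 ± 0.568 CPM (SD, 3 libraries) to 18.5 ± 5.49 CPM (SD, 4 libraries), a log2 change of 3.48 with an SE of 0.31 and an adjusted p of 6.76e-07 (edgeR), or 11.2-fold. The level stayed low next to that of Pigr, with 90 counts in the PBS group and 1267 in the TNF group.

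The 250 bases before the annotated start of C3 are shown because C3 rose strongly and because 2 families of inflammatory transcription factors bind short motifs that can be searched there. The sequence is from RefSeq (GRCm38.p6, chr17:57228137-57228386, minus strand), and capitals mark matches to the kB motif (GGG and CC with 5 bases of any kind between them) or the C/EBP motif TTNNGNAA on either strand. Start sites used in these cells were not measured.
C3: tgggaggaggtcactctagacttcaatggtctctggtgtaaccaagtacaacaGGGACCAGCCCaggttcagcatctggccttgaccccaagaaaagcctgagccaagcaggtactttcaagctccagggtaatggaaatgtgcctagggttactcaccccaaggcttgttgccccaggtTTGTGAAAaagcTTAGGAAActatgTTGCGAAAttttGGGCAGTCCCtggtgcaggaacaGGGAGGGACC
Counting the base before the start as -1, kB matches began at -197, -33 and -10, with the match at -33 present on both strands and an overlapping match to the other strand from -196. C/EBP matches began at -70, -58 and -45, the last on both strands. Both motifs are short, and 50.8% of 32851 RefSeq promoter windows of 300 bases held a kB match and 40.7% a C/EBP match, so a match describes the letters and is no evidence of binding.

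Cfb (ENSMUSG00000090231, GRCm39 chr17:35074852-35081559, minus strand) encodes complement factor B, the protease subunit of the alternative pathway convertase. It was at 9.46, 9.82 and 7.21 CPM after PBS and at 8.45, 6.48, 8.78 and 8.38 CPM after TNF, with overlapping groups. The means were 8.83 ± 1.41 CPM (SD, n = 3) and 8.02 ± 1.04 CPM (SD, n = 4), and a log2 change of -0.14 with an SE of 0.20 and an adjusted p of 0.574 (edgeR) was within the spread between replicates. Cfb thus did not pass the test while C3, the other part of that convertase, did, and the difference between them was not tested. The count of Cfb is uncertain, since 65.5% of its 75-base transcript windows also occurred in another annotated gene, most of them in the readthrough gene Gm20547, which had 0 counts in every library. Its exons also share 1704 bases with Nelfe on the opposite strand, a gene with a log2 fold change of 0.05 (edgeR adjusted p = 0.834), and whether counting used strand is unknown from the sources used here.

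C4b (ENSMUSG00000073418, GRCm39 chr17:34947354-34962912, minus strand) encodes complement component 4, which the classical and lectin pathways cleave to build their C3 convertase. Its level was 24.4, 15.4 and 9.97 CPM after PBS and 4.42, 6.37, 4.5 and 6.35 CPM after TNF. All TNF values lay below all PBS values, although the PBS libraries were far apart, with a coefficient of variation of 43.9% against 20.3% after TNF. The mean fell from 16.6 ± 7.29 CPM (SD, 3 libraries) to 5.41 ± 1.10 CPM (SD, 4 libraries), a log2 change of -1.62 with an SE of 0.27 and an adjusted p of 0.000206 (edgeR), or 3.07-fold lower. The paralog C4a, 65.156 kb away on the same strand, shares 1306 of the 7412 windows of 75 bases of C4b. C4a was near the floor, with 0, 5 and 17 counts after PBS and 9, 18, 8 and 2 counts after TNF, and was not tested.

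Cfi (ENSMUSG00000058952, GRCm39 chr3:129629533-129668981, plus strand) encodes complement factor I, the protease that inactivates C3b and C4b together with cofactors. It was measured at 88.6, 81.6 and 58.2 CPM after PBS and at 22.8, 23.6, 26.9 and 37.2 CPM after TNF. The groups did not overlap, and the highest TNF value, in replicate 4, was well under the lowest PBS value. The mean fell from 76.2 ± 15.9 CPM (SD, 3 libraries) to 27.6 ± 6.61 CPM (SD, 4 libraries), with a log2 change of -1.46 with an SE of 0.18 and an adjusted p of 1.69e-05 (edgeR), or 2.76-fold lower. Next to Pigr, Cfi was the gene with the most counts, 4136 in the PBS group and 1879 in the TNF group. Summed markers of goblet cells (11386 to 20821 CPM after PBS, 9229 to 10526 CPM after TNF) and of stem cells (4022 to 5227 and 2556 to 3341 CPM) were lower after TNF as well. The median log2 change was -2.05 over 8 goblet cell, -0.94 over 8 stem cell, -1.51 over 8 tuft cell and -1.44 over 7 enteroendocrine markers tested, and their part in the fall of C4b and Cfi was not tested.

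Saa3 (ENSMUSG00000040026, GRCm39 chr7:46361422-46365576, minus strand) encodes serum amyloid A3, an SAA form made mainly outside the liver. It had 0, 3 and 2 counts in the PBS libraries and 53, 66, 112 and 141 counts in the TNF libraries. Saa3 was thus close to 0 after PBS and detected in every TNF library, with values from 2.97 CPM in replicate 1 to 9.23 CPM in replicate 4. The mean rose from 0.0863 ± 0.0783 CPM (SD, 3 libraries) to 5.52 ± 2.78 CPM (SD, 4 libraries), a log2 change of 5.82 with an SE of 0.66 and an adjusted p of 4.7e-06 (edgeR), or 56.4-fold. With 5 counts in all in the PBS group, the size of the rise depended on single libraries, and without PBS replicate 2 the fitted fold was 86.5. Macrophages and other leukocytes can also express Saa3. Ly6g had 0 counts in the PBS libraries and 102, 48, 66 and 17 counts in the TNF libraries. S100a9 had 0 counts in the PBS libraries and 103, 116, 60 and 120 counts in the TNF libraries. S100a8 had 0 counts in the PBS libraries and 10, 13, 4 and 5 counts in the TNF libraries. The macrophage genes Csf1r and Adgre1 had 7 counts or fewer in every TNF library. Ptprc, which all leukocytes express, was lower after TNF, at 16.4 ± 8.52 CPM (SD, 3 libraries) against 8.50 ± 2.90 CPM (SD, 4 libraries), a log2 change of -0.95 (edgeR adjusted p = 0.027) with overlapping groups. Their part in the rise of Saa3 was not tested.

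Saa1 (ENSMUSG00000074115, GRCm39 chr7:46389916-46392547, minus strand) encodes an SAA protein that liver and gut epithelium secrete. It had 8, 10 and 0 counts after PBS and 10, 14, 9 and 15 counts after TNF, and its CPM ranges overlapped between the groups. The means were 0.334 ± 0.290 CPM (SD, n = 3) and 0.712 ± 0.232 CPM (SD, n = 4), with a log2 change of 1.08 with an SE of 0.81 and an adjusted p of 0.267 (edgeR). Saa1 was thus not called.

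Saa2 (ENSMUSG00000057465, GRCm39 chr7:46401214-46403737, plus strand), the closest paralog of Saa1, encodes a second liver and gut SAA protein. Its counts were 1, 6 and 2 after PBS and 0, 3, 3 and 36 after TNF. TNF replicate 4 held 85.7% of the 42 counts of the TNF group, and the other TNF libraries together held 6, next to 9 counts in the PBS group. Without a filter on low counts, Saa2 had a log2 change of 2.00 with an SE of 0.99 and an adjusted p of 0.104 (edgeR), and was not called. TNF replicate 4 also held 53 of the 91 TNF counts of Alb, 15 of the 48 of Saa1 and 11 of the 25 of Hp.

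The 3 genes and Saa4 form a cluster on chromosome 7. Saa4 had 0 counts in every library. The ends of Saa1 and Saa2 lie 8.666 kb apart on opposite strands, and 582 transcript windows of 75 bases occur in both, which is 17.7% of those of Saa1 and 20.8% of those of Saa2. Counts of these paralogs are therefore uncertain, while Saa3 shared 1.18% of its windows with any other gene.

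The upstream sequences of the 3 SAA genes with counts are shown because Saa3 was the only SAA gene called and because Saa1 and Saa2 are near copies. The 250 bases before each start are from RefSeq (GRCm38.p6), at chr7:46715677-46715926, minus strand, for Saa3, chr7:46742981-46743230, minus strand, for Saa1 and chr7:46751583-46751832, plus strand, for Saa2, and capitals again mark kB or C/EBP matches on either strand.
Saa3: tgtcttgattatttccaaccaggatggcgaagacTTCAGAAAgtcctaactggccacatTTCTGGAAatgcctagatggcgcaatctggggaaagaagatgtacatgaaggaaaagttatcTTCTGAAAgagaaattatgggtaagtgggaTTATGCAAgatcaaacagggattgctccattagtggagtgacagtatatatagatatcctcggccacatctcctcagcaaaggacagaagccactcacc
Saa1: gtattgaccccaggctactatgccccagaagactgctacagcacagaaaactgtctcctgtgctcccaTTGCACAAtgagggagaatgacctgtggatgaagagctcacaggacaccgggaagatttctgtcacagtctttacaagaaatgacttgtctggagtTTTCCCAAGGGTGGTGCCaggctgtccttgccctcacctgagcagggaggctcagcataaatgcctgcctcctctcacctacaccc
Saa2: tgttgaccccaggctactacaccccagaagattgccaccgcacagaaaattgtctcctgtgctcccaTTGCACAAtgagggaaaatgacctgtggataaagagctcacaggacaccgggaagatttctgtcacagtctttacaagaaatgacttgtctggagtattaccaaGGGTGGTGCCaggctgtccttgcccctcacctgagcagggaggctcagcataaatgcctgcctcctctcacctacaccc
Saa1 and Saa2 were identical at 238 of 251 aligned columns (94.8%), and both held a kB match, from -78 in Saa1 and from -79 in Saa2. Saa3 was identical to Saa1 at 48.9% of columns and had no kB match in this window, which says nothing about the factor. It held 4 C/EBP matches, beginning at -216, -191, -129 and -99, against 2 in Saa1 and 1 in Saa2, and a match from -125 to the interferon-stimulated response element (GAAA repeated after 2 bases of any kind), which 3.44% of all windows hold.

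Hp (ENSMUSG00000031722, GRCm39 chr8:110301759-110305804, minus strand) encodes haptoglobin, which binds free haemoglobin in plasma. It had 3, 15 and 10 counts after PBS and 2, 8, 4 and 11 counts after TNF, and the groups overlapped. The means were 0.493 ± 0.291 CPM (SD, n = 3) and 0.379 ± 0.273 CPM (SD, n = 4), with a log2 change of -0.42 with an SE of 0.75 and an adjusted p of 0.655 (edgeR). Without PBS replicate 2, the library with 15 counts, the value was 0.047 (edgeR adjusted p = 0.972), so no direction was detectable for Hp. The same library had the most counts of the enterocyte genes Apoa1 (434) and Apoa4 (167), while the summed level of 10 enterocyte markers ran only from 654 to 804 CPM over the PBS libraries. The part of enterocytes in the counts of Hp was not tested.

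Pigr (ENSMUSG00000026417, GRCm39 chr1:130754397-130779986, plus strand) was the most abundant of the 9 genes. Its level was 2319.6, 2204 and 1571 CPM in the PBS libraries and 2929.8, 3778, 3612 and 4184 CPM in the TNF libraries. All TNF libraries exceeded all PBS libraries, with a smaller fold than for C3 or Saa3. The mean rose from 2031 ± 403 CPM (SD, 3 libraries) to 3626 ± 523 CPM (SD, 4 libraries), a log2 change of 0.84 with an SE of 0.19 and an adjusted p of 0.00154 (edgeR), or 1.78-fold. When the change was tested against 2-fold rather than against 0, Pigr was not called (edgeR adjusted p = 1.00). Pigr took 0.191 to 0.235% of all counts after PBS and 0.318 to 0.352% after TNF, whereas the other 8 genes together took 0.00938 to 0.0118% after PBS and 0.00535 to 0.0074% after TNF. Enterocytes also express Pigr. The summed level of 10 enterocyte markers went from 654 to 804 CPM after PBS to 317 to 396 CPM after TNF. Of 7 tested, 2 were higher and 4 lower, next to 29.5% and 30.1% of all genes. The part of enterocytes in the change of Pigr was not tested.

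The 250 bases before the start of Pigr are shown for comparison with C3 and Saa3 (RefSeq, GRCm38.p6, chr1:130826434-130826683, plus strand; capitals as above).
Pigr: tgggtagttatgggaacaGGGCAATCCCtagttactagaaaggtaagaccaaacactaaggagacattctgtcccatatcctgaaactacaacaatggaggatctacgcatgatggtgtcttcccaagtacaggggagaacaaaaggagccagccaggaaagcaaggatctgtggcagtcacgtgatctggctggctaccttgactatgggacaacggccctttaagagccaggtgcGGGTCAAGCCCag
Pigr had kB matches from -232, on both strands, and from -13 and -12 on opposite strands. It had no C/EBP match in this window, and a STAT motif match (TTCNNNGAA, held by 8.3% of all windows) lay after the start, at +40 to +48. Among the genes that rose, no motif was thus held by all: kB matches were present for C3 and Pigr, and C/EBP matches for C3 and Saa3.

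The other genes of the complement system were mostly at or near 0 counts. Over 4 lists with 52 symbols, 51 were found in the count table, 18 of these had 0 counts in every library and 13 were tested. Of the 13, 3 were higher after TNF, 2 were lower and 8 were not called, so that 5 were called, next to 59.6% of all genes tested (29.5% higher and 30.1% lower), a difference that was not tested. In the classical and lectin pathway, 5 of 18 genes were tested and only C1qa, a subunit of C1q, was called. C1qa fell from 2.35 ± 1.23 CPM (SD, 3 libraries) to 0.378 ± 0.503 CPM (SD, 4 libraries), with a log2 change of -2.60 with an SE of 0.79 and an adjusted p of 0.0127 (edgeR). The call was lost without PBS replicate 2 (-2.08, edgeR adjusted p = 0.0769), and the value was -4.05 without TNF replicate 1.

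In the alternative and terminal pathway, Cfp was the only gene tested beside those described above. Cfp encodes properdin, which stabilises the convertase of the alternative pathway, and it rose from 0.664 ± 0.356 CPM (SD, 3 libraries) to 2.62 ± 1.37 CPM (SD, 4 libraries), a log2 change of 1.96 with an SE of 0.58 and an adjusted p of 0.00935 (edgeR), with overlapping groups. Neutrophils also express Cfp, and Ly6g and S100a9, with 0 counts in all PBS libraries, were at 3.30 ± 1.90 and 5.92 ± 1.99 CPM (SD, 4 libraries) after TNF. S100a8, also at 0 counts in all PBS libraries, had 10, 13, 4 and 5 counts after TNF. Ptprc was lower after TNF (log2 change -0.95, edgeR adjusted p = 0.027). The 12 leukocyte markers were summed at 23.8 to 32.7 CPM after PBS and 27.3 to 32.8 CPM after TNF. The part of leukocytes in the rise of Cfp was not tested. None of 8 complement receptor genes was called, and 1 of them was tested. Most genes of the terminal pathway, among them C6, C7, C8a, C8b and C9, had 0 counts in every library.

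Of the regulators that act with or beside factor I, 6 of 16 were tested, of which 2 were higher and 1 was lower (next to the same 29.5% and 30.1%). Cr1l, which encodes the membrane regulator Crry, a cofactor of factor I, rose from 48.7 ± 3.71 CPM (SD, 3 libraries) to 305 ± 30.9 CPM (SD, 4 libraries), with a log2 change of 2.65 with an SE of 0.12 and an adjusted p of 8.67e-10 (edgeR). Cd55, whose product breaks up convertases on the cell surface, rose from 9.04 ± 0.786 to 22.2 ± 2.99 CPM, a log2 change of 1.30 with an SE of 0.16 and an adjusted p of 8.36e-06 (edgeR). C4bp, which encodes a soluble cofactor of factor I, fell from 91.2 ± 10.3 to 45.6 ± 17.9 CPM, a log2 change of -1.0 with an SE of 0.25 and an adjusted p of 0.00672 (edgeR). Against 2-fold, Cd55 (adjusted p = 0.0526) and C4bp (adjusted p = 0.722) were not called. C4bp and Cd55 lie on chromosome 1 at 164.996 and 363.47 kb from Pigr.

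Of 27 other positive acute phase genes, 11 were tested, of which 8 were higher after TNF, none was lower and 3 were not called (next to 29.5% higher and 30.1% lower over all genes tested), with a median log2 fold change of 2.83. Lcn2, which encodes lipocalin 2, a protein that binds bacterial siderophores, went from 0.366 ± 0.279 CPM (SD, 3 libraries) to 363 ± 46.9 CPM (SD, 4 libraries), a log2 change of 9.87 with an SE of 0.30 and an adjusted p of 1.03e-10 (edgeR). The metalloreductase gene Steap4 rose by 6.19 ± 0.44 on the log2 scale (SE, edgeR adjusted p = 9.26e-08), with 6.90 without PBS replicate 2 and 5.60 without PBS replicate 3. Lbp, the gene of lipopolysaccharide-binding protein, rose from 0.459 ± 0.219 to 21.5 ± 3.25 CPM, a log2 change of 5.53 with an SE of 0.29 and an adjusted p of 3.18e-09 (edgeR). All 3 had larger fitted changes than C3, differences that were not tested.

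Negative acute phase and liver plasma protein genes, whose products decline in plasma during inflammation or come mainly from liver, had a median log2 fold change of -0.91 over 10 tested of 15, with 1 higher and 4 lower (next to 29.5% and 30.1% of all genes tested). Fetub, which encodes fetuin-B, rose from 0.968 ± 0.557 CPM (SD, 3 libraries) to 6.67 ± 1.40 CPM (SD, 4 libraries), a log2 change of 2.80 with an SE of 0.38 and an adjusted p of 2.55e-05 (edgeR). Apoh fell by 3.17 ± 0.45 (SE, edgeR adjusted p = 3.29e-05) and Ttr, the transthyretin gene, fell by 2.82 ± 0.52 (SE, edgeR adjusted p = 0.000332) on the log2 scale, the latter by 3.55 without TNF replicate 1. Apoa1, the gene of the main protein of high-density lipoprotein and also an enterocyte gene, had 18, 434 and 45 counts after PBS and 1, 0, 0 and 0 after TNF. The PBS to TNF ratio of Apoa1 was 625 (95% exact interval 112 to 24744, counting error only) with all libraries and 124 (21.4 to 4962) without PBS replicate 2. Without TNF replicate 1 it was at least 154-fold lower after TNF, against a floor of 3 counts over the group, and was not called (edgeR adjusted p = 0.133).

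All 21 genes of acute phase transcription factors and cytokine receptors were tested, of which 15 were higher, 2 lower and 4 not called (next to 29.5% and 30.1% of all genes tested), with a median log2 fold change of 1.39. Osmr, the gene of the oncostatin M receptor chain, went from 0.184 ± 0.162 CPM (SD, 3 libraries) to 149 ± 20.7 CPM (SD, 4 libraries), a log2 change of 9.61 with an SE of 0.32 and an adjusted p of 2.39e-10 (edgeR), with 10.26 without PBS replicate 2 and 9.02 without PBS replicate 3. Cebpd, a C/EBP family factor, rose from 4.14 ± 1.22 to 113 ± 18.4 CPM, by 4.79 ± 0.20 on the log2 scale (SE, edgeR adjusted p = 9.02e-10). Socs3, a feedback inhibitor of cytokine receptors that signal through STAT factors, rose from 17.4 ± 8.32 to 359 ± 62.5 CPM, by 4.37 ± 0.31 on the log2 scale (SE, edgeR adjusted p = 1.91e-06).

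Hnf4a, a nuclear receptor that drives liver and gut epithelial genes, fell from 536 ± 50.7 CPM (SD, 3 libraries) to 186 ± 13.8 CPM (SD, 4 libraries), a log2 change of -1.53 with an SE of 0.11 and an adjusted p of 6.42e-08 (edgeR). Il1r1, the receptor of interleukin 1, had a log2 change of -2.76 with an SE of 0.92 and an adjusted p of 0.021 (edgeR). That call was lost without PBS replicate 2, TNF replicate 2 or TNF replicate 4, and the value was -5.41 without TNF replicate 1, which held 18 of the 20 TNF counts.

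A list of 6 IgA transport partners was examined for the cargo of the Pigr protein, of which 1 was tested and called higher (Fcrl1), while the immunoglobulin transcripts were near 0. Igha, the IgA heavy chain gene, had 6 counts in the PBS group and 8 in the TNF group, Jchain had 1 and 7, and Mzb1, a plasma cell gene, had 0 in all libraries, while most of the summed level of the plasma cell list was Sdc1 (38.6 ± 3.95 to 125 ± 11.5 CPM). Fcrl1 is a B cell Fc receptor-like gene rather than an IgA transporter. Fcrl1 had 2, 1 and 0 counts after PBS and 140, 199, 176 and 188 after TNF, a ratio of 186 (95% exact interval 63.5 to 905, counting error only), with 393 (70.4 to 15564) without PBS replicate 1 and 122 (41.6 to 593) without PBS replicate 3.

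**Figure D3:**
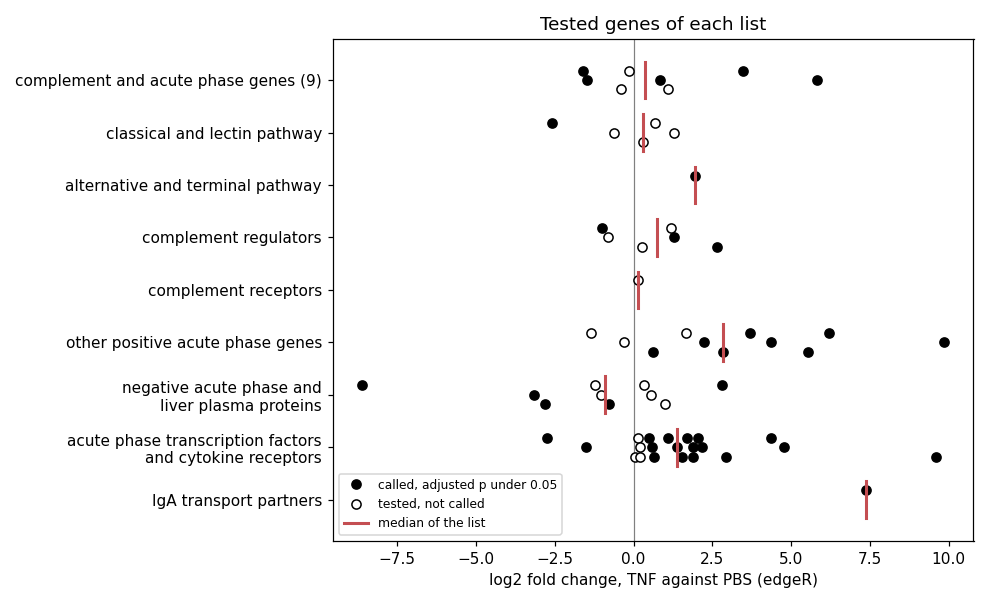
Log2 fold change (TNF against PBS, edgeR) of every tested gene, in rows for the 9 genes and for each other list; filled points were called at an adjusted p under 0.05, open points were not, and red bars mark list medians. The medians are 2.83 for other positive acute phase genes and 1.39 for transcription factors and cytokine receptors, against 0.35 for the 9 genes, which spread to both sides of 0.

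Within groups, the 9 genes differed widely in their spread between mice. Pigr, Cfb, Cfi and C3 had coefficients of variation of 14.4, 13.0, 23.9 and 29.7% after TNF, and Saa3 and Saa2 had 50.3 and 167%. In CPM, TNF replicate 4 was the highest TNF library for Cfi, Saa1, Saa2, Saa3, Hp and Pigr. In TPM it was not the highest for Cfi or Saa1, and it was the lowest for Pigr. As a description of the profile of the group, the 3 genes with the highest Pearson r to the mean standardised log2 CPM of the tested members were Il10rb (0.976), Eef1b2 (0.974) and Cox6c (0.966), over 7 libraries and among 8529 genes, of which 51 had r above 0.9. None of the 3 was called, with log2 fold changes of 0.14, 0.07 and 0.08, and the profile averages genes that rose and genes that fell.

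The values of C3, C4b, Cfi and Saa3 kept their direction and their call under 15 alternative settings, over ranges of 3.22 to 3.70, -1.89 to -1.23, -1.65 to -1.34 and 5.34 to 6.43 on the log2 scale. Pigr ranged from 0.68 to 0.95 and lost its call only in the test against 2-fold. Cfb ranged from -0.28 to -0.04, and Saa1 from 0.49 to 1.54 over the 11 settings in which it was tested, and neither was called under any of them. Hp was tested in 13 of the 15 settings and did not pass the filter without TNF replicate 4 or at 1 CPM in 3 libraries.

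**Figure D4:**
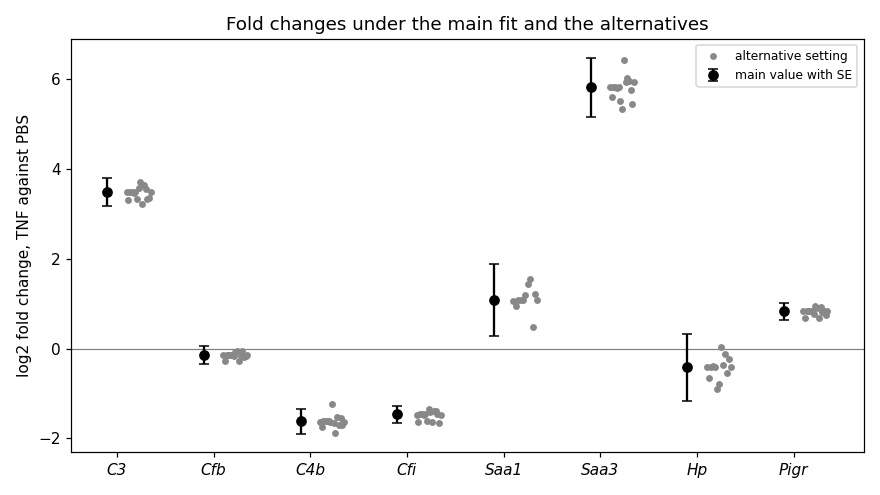
Log2 fold change (TNF against PBS) of the 8 tested genes, as the reported value with its SE (black) and under each alternative setting in which the gene passed the filter (grey; 13 of 15 for Hp, 11 of 15 for Saa1). The grey points of C3, Saa3 and Pigr stay above 0 and those of C4b and Cfi below 0, while those of Hp reach from -0.90 to 0.05.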

How the data were processed

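RNA of sorted PCs from 3 PBS and 4 TNF mice was sequenced with single-end reads. The authors deposited raw counts, as whole numbers of reads per gene and library. Per the labels, the processing notes name FastQC, Trimmomatic 0.39, STAR 2.7.10a and DESeq2, and the builds mm10 and mm39 without a role. The counting program, annotation and strand setting were not given in the sources used here. Symbols and coordinates came from GENCODE M39 (GRCm39), which held 98.8% of identifiers.

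TNF was compared with PBS by the quasi-likelihood test of edgeR 4.0.16 in R 4.3.3 (robust, two-sided), after filterByExpr and trimmed mean of M-values (TMM) scaling, without covariates, with Benjamini-Hochberg adjustment over 14329 genes. The script was tested on simulated data. Named were all members, up to 3 rises and 3 falls per other list (called, mean of 1 CPM or more), Saa4, C4a and the 3 genes most alike in profile (mean of 10 CPM or more). Other genes were chosen after their values were seen. The members and lists were chosen with earlier results of these data known. Alternatives were DESeq2 1.42.0 as a test or for size factors, scaling by total counts, TMM without alpha-defensins and Lyz1, no filter, a filter of 1 CPM in 3 libraries, a test against 2-fold, a replicate block, and leaving out each library. Libraries of a group differed beyond sampling noise (chi-square over degrees of freedom 16.7 to 68.8). Intervals and floors cover counting error only.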

Additional observations from a re-analysis of the deposited data

Results flagged for a closer look

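Of 29 named genes, 3 had a TNF library far from the other TNF libraries by Dixon's ratio, which chance exceeds in about 1 in 20 groups. Groups of 3, as for PBS, were not checked. Saa2 was at 2.36 CPM in TNF replicate 4, against 0.177 CPM or less in the other TNF libraries. Apoa1 was at 0.056 CPM in TNF replicate 1, which is a single count, against 0 in the other TNF libraries. Il1r1 was at 1.01 CPM in TNF replicate 1, with 18 counts, against 1, 0 and 1 counts in the other TNF libraries.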

How the results depend on the processing

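Over counts of calls, 280 values under an alternative stayed within 1.5 times the reported count and 20 did not. Over single genes, 372 kept their direction and side of the threshold, 11 lost their call and 1, Hp, changed sign (-0.42 as reported, -0.78 to 0.047 when libraries other than TNF replicate 4 were left out in turn, with 0.047 without PBS replicate 2, and -0.90 under the replicate block). In the test against 2-fold, 1225 genes were higher and 1436 lower, and the calls became 0 lower in the classical and lectin pathway, 0 higher in the alternative and terminal pathway, 1 higher and 0 lower among complement regulators and 1 lower among transcription factors and receptors. Among the named genes, those that lost their call there were Pigr, C1qa, Cfp, Cd55, C4bp and Il1r1. Genes not named lost calls as well. Those higher went from 8 to 6 among other positive acute phase genes and from 15 to 11 among transcription factors and receptors. Those lower went from 4 to 3 among negative acute phase genes. Without a filter on low counts and in the DESeq2 test, 1 gene of the alternative and terminal pathway (C8g, with 5, 26 and 9 counts after PBS and 0 in all TNF libraries) and 2 complement regulators (C4bp and Cd59a) were lower, since these settings test genes with fewer counts.

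When each library was left out in turn, calls ranged from 0 to 1 higher and from 0 to 1 lower in the classical and lectin pathway (1 higher without PBS replicate 1 or PBS replicate 3, 0 lower without PBS replicate 2), from 0 to 1 lower in the alternative and terminal pathway (1 without PBS replicate 1), from 0 to 1 lower among other positive acute phase genes (1, Mt2, without TNF replicate 1), from 2 to 4 lower among negative acute phase genes (2 without TNF replicate 1) and from 1 to 2 lower among transcription factors and receptors (1 each without PBS replicate 2, without TNF replicate 2 and without TNF replicate 4). The cause was not tested. The median log2 change over all genes was 0.0017, and -0.16 when libraries were scaled by total counts, which gave 3142 genes higher and 4614 lower in place of 4229 and 4314.

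The labels do not state that replicate numbers pair the mice. Deviations of same-numbered libraries correlated at -0.48, -0.10 and -0.24 over 8804 genes, and those of differently numbered libraries at -0.29 to 0.43. Deviations from the means of so few libraries depend on each other, so these values cannot decide whether mice were paired. A replicate block, which leaves TNF replicate 4 without a partner, gave 3553 genes higher and 3578 lower and again 3 members higher and 2 lower. Saa1, Saa2 and Hp had at most 48 counts in a group, which limits the precision of their values.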

Other observations

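The 3 fibrinogen genes lie next to each other on chromosome 3 (chosen after their values were seen). Fga, the alpha chain gene, had 12, 2 and 16 counts after PBS and 171, 203, 194 and 216 counts after TNF, a log2 change of 4.36 with an SE of 0.42 and an adjusted p of 1.32e-06 (edgeR). Fgb, the beta chain gene, 6.513 kb away, had 7, 2 and 0 counts after PBS and 17, 14, 22 and 5 counts after TNF. It was also called higher, with a log2 change of 2.23 with an SE of 0.88 and an adjusted p of 0.0415 (edgeR). The CPM ranges of its groups overlapped, with 7 of the 9 PBS counts in PBS replicate 1. Fgg, the gamma chain gene, had 14 and 15 counts and was not tested. The difference between the 3 genes was not tested.

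Among the chains of C1q, counts also differed. C1qa had 132 counts in the PBS group and 27 in the TNF group, while C1qb had 3 and 1 and C1qc had 0 in all 7 libraries, although macrophages express the 3 genes together. Crp, the C-reactive protein gene, had 4, 8 and 4 counts after PBS and 0, 0, 0 and 1 after TNF, too few to pass the filter.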
